A study of Schizosaccharomyces pombe with 6 samples.

Results

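The regions described here are those that 3 lists of called ChIP-seq regions hold at the ends of the fission yeast chromosome arms. They were chosen by position alone: every region that touched, by at least 1 bp, the outer 150 kb of either end of chromosomes I and II, or the 150 kb on chromosome III that lie just inside the ribosomal DNA (rDNA) at either end (positions 23131 to 173130 and 2290994 to 2440993). That gave 269 of 3896 regions, with 24 of 299 from the Pli1-12Pk list, 16 of 62 from the Nse2-12Pk list and 229 of 3535 from the untagged list. Also included were the gaps at the arm ends, meaning stretches outside every region of a tagged list, of which the Pli1 list had 22 and the Nse2 list 14. No region was left out by a filter. The 6 windows are called I left, I right, II left, II right, III left and III right, and the rest of the genome means the remainder of the 3 chromosomes.

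The study recovered chromatin of Schizosaccharomyces pombe with an antibody against the Pk epitope. The strains carried Pli1-12Pk (a SUMO ligase of the PIAS family), Nse2-12Pk (the SUMO ligase of the Smc5/6 complex) or no tag, and the labels give no other alleles and do not say how many clones stand behind a strain. All 3 were grown in rich YES medium, joined to a culture of budding yeast with Ku70-cMyc as calibrator and fixed for 15 min in 1% formaldehyde. Each strain had 1 ChIP library, so no difference between strains could be tested, and exact (Clopper-Pearson) 95% intervals of shares cover counting error only. A summit is the position of highest signal in a region. The authors' score is a whole number whose scale is not given, so it was used only to rank regions within a list, in which the median score was 2537 for Pli1, 11305 for Nse2 and 129 for untagged. The depth and length of the reads are unknown here.

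Subtelomeres of fission yeast are gene-poor stretches between the telomere repeats and the bulk of each arm. They hold duplicated sequence shared between arms, including the telomere-linked RecQ-type helicase genes (tlh), families of transporter and cell surface genes, and genes that are silent in rich medium and are switched on by nutrient limitation. Their outer parts are packed in heterochromatin marked by methylated histone H3 lysine 9, with a further condensed domain inside it. Both ends of chromosome III carry the rDNA repeats outside the unique sequence, so the 2 windows of that chromosome border on 18S rRNA genes and not on a chromosome end.

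The sequences below are a selection, not all, of the sites where summits of several lists met or where a summit lay in an RNA gene. They come from the RefSeq reference ASM294v3, and each is written 5′ to 3′ on the strand given. In the first pair the capitals run from the first to the last summit of the lists in that place. The tlh1 site carried a summit of all 3 lists, and fex1, a fluoride channel gene, also did.
tlh1, chrI:2194-2314, minus strand: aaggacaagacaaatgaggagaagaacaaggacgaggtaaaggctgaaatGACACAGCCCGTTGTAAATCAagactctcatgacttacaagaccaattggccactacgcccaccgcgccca
fex1, chrI:55642-55813, plus strand: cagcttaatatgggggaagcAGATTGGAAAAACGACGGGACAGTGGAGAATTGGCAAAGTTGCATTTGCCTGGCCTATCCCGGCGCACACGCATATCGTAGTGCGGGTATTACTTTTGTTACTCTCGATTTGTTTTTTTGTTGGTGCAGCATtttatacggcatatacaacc
The site in fex2, the copy of fex1 on the left arm of chromosome II, had an Nse2 and an untagged summit, and capitals again span the summits. The printed stretches of fex1 and fex2 are offset windows on the same sequence, and each occurs whole in the other gene.
fex2, chrII:56309-56429, minus strand: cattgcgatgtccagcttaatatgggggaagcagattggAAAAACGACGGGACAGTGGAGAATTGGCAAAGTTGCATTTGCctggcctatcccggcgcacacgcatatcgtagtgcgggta
Both tagged lists had a summit at each rDNA border of chromosome III, and capitals mark the bases from one summit to the other. The right-hand sequence is the reverse complement of the left-hand one over 120 bases.
III left, rDNA border, chrIII:23768-23888, plus strand: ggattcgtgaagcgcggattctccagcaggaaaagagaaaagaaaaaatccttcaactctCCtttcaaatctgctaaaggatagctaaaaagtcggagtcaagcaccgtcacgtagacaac
III right, rDNA border, chrIII:2440237-2440357, plus strand: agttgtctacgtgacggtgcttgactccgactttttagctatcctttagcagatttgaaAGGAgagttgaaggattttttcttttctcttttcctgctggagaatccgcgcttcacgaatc
The outermost tagged summits of II right fell on a sequence that occurs at 1 place in the reference, and capitals span both of them. At I right the outermost Pli1 and untagged summits lay in SPAC750.08c, annotated as a malic enzyme, with capitals spanning those summits.
II right, outermost site in SPNCRNA.6662, chrII:4538917-4539037, plus strand: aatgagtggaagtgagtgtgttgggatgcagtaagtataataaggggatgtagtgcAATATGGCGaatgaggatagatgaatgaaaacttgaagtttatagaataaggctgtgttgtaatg
SPAC750.08c, chrI:5578692-5578812, minus strand: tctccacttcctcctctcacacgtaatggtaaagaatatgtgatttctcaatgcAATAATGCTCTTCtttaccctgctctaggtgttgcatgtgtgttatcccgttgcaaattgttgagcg
A Pli1 summit fell inside each of 2 tRNA genes, for which capitals mark the whole gene of 82 bases (serine) or 72 bases (histidine).
SPATRNASER.04, chrI:5437717-5437858, plus strand: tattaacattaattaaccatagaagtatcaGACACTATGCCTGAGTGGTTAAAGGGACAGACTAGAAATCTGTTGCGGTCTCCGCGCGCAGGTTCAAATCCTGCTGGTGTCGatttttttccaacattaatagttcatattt
SPCTRNAHIS.03, chrIII:71370-71501, plus strand: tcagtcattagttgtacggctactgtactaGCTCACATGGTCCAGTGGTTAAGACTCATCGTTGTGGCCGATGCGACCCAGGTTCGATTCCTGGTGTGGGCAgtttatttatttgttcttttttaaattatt
Several of these sequences are not unique. The tlh1 stretch has an exact copy in tlh2 at II right (chrII:4530233-4530353), so that summits there may stand for either gene. The fex1 stretch likewise has an exact copy in fex2 (chrII:56246-56417), and the fex2 stretch one in fex1 (chrI:55630-55750), so summits there may also stand for either gene. The SPAC750.08c stretch occurs at 3 places, the others being the pseudogenes SPAC212.09C at I left and SPBCPT2R1.07C at II right. The rDNA border stretches have 5 exact copies each, all on chromosome III. Around the tRNA genes the flanks made the printed stretches unique, although the serine tRNA gene itself occurs 7 times in the reference and the histidine one 4 times.

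The tagged lists covered nearly every base of the arm ends and the untagged list about as much as elsewhere. Pli1 regions covered 98.3% of the 900 kb of the arm ends, Nse2 regions 99.2% and untagged peaks 16.7%. In the rest of the genome the shares were 99.3% for Pli1, 99.8% for Nse2 and 18.8% for untagged. Tagged regions were long in both parts, so the summit and the gaps carry the detail. Their median was 33532 bp for Pli1 and 74149 bp for Nse2 at the arm ends, against 28174 bp and 92216 bp in the rest. Untagged peaks were short, with a median of 573 bp at the arm ends and 558 bp in the rest, and numbered 25.4 per 100 kb at the arm ends, against 28.3 in the rest.

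**Figure D1:**
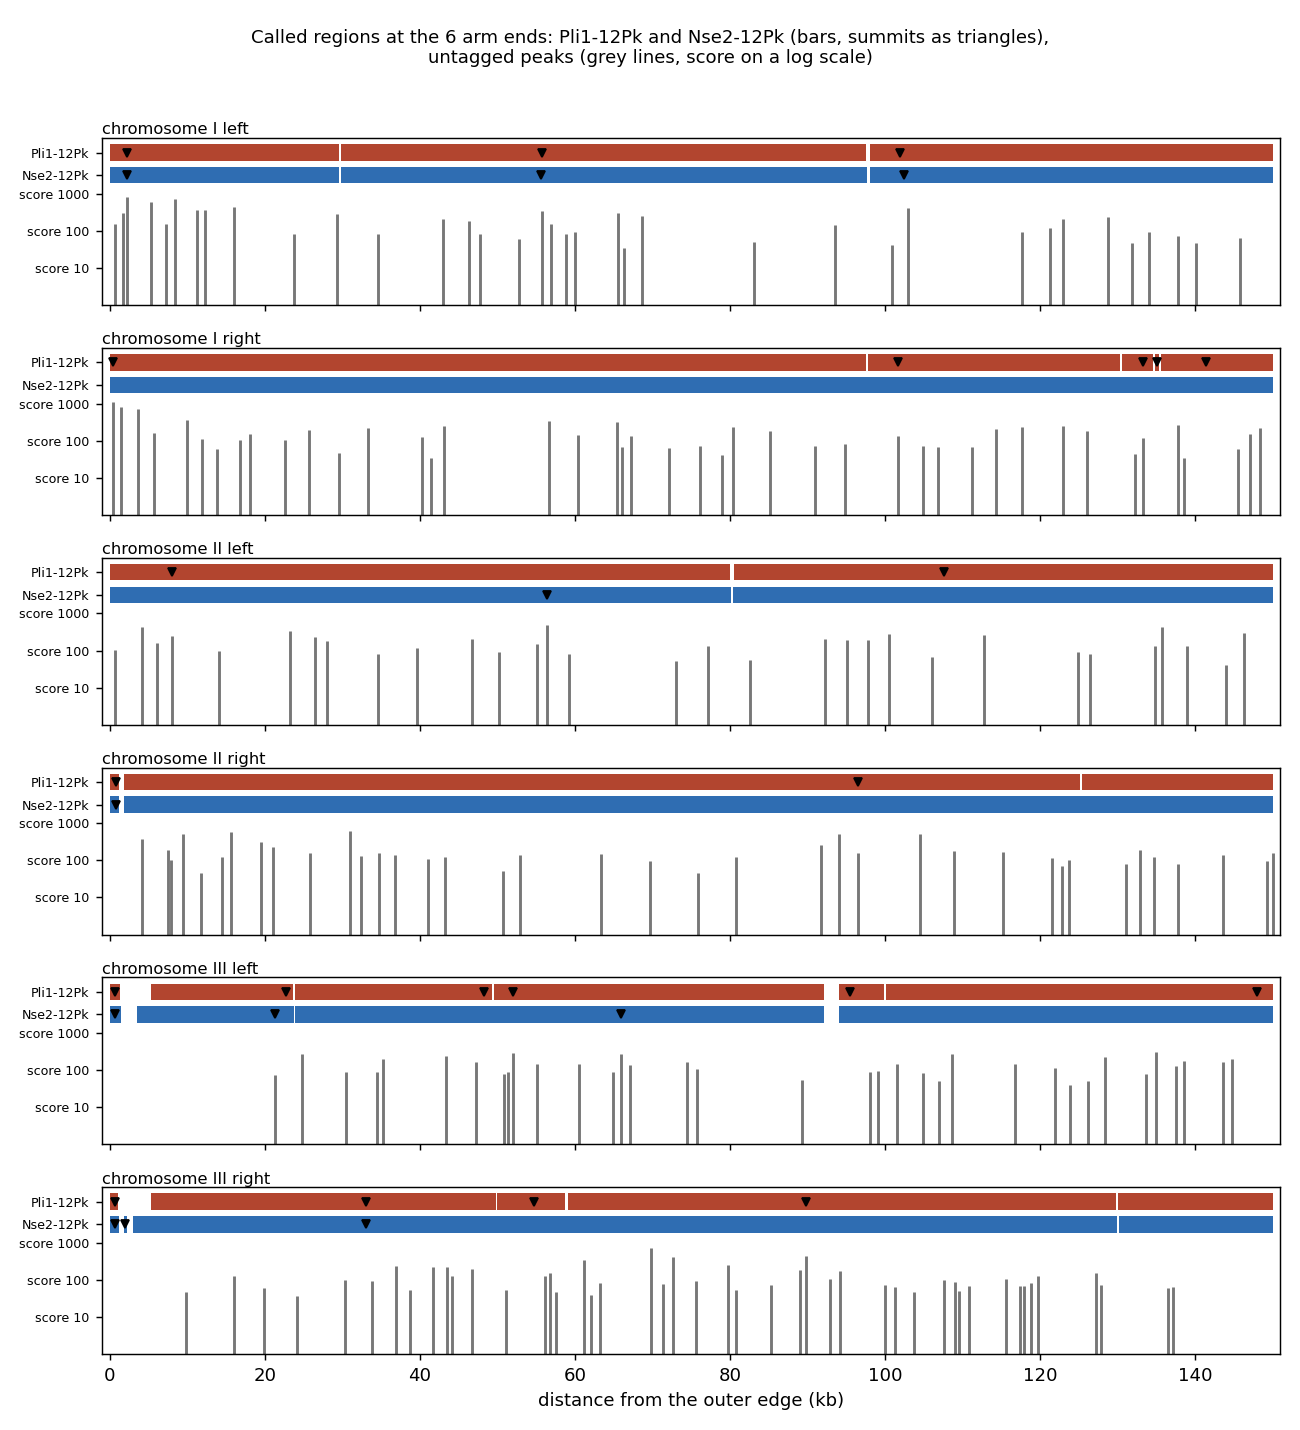
Map of the 6 arm ends by distance from the outer edge in kb, with Pli1-12Pk regions as red bars, Nse2-12Pk regions as blue bars, their summits as black triangles and untagged peaks as grey lines whose height is the score on a log axis. The bars are broken by few gaps, which are widest next to the rDNA on chromosome III and at ura4 on III left, and III left has no untagged peak in its outer 20993 bp.

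At I left, 3 Pli1 and 3 Nse2 regions lay in matching places, and their summits fell on the same 3 genes. The outermost pair was in tlh1, with the Pli1 summit at position 2264 (score 3585) and the Nse2 summit at 2256 (14324), 8 bp apart and within 20 bp of the untagged summit at 2244. The next was in fex1, where the Pli1 summit at 55748 (2165) and the Nse2 summit at 55662 (5493) were 86 bp apart, beside an untagged summit at 55793. The third was in pdc101, which codes for a pyruvate decarboxylase, the enzyme that leads pyruvate into ethanol fermentation. There the Pli1 summit at 101944 (4295) and the Nse2 summit at 102401 (23079) were 457 bp apart and both inside 1 untagged peak of 1613 bp. All 6 tagged summits of this window thus lay inside untagged peaks.

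The 36 untagged peaks of I left were led by tlh1 (score 794, ranked 52 of 3535), the pseudogene SPAC212.09C (726, ranked 68) and a further tlh1 peak (596, ranked 125). The gene tlh1, on the minus strand, runs out to the first base of the reference. It held 4 peaks, which covered 68.0% of it, and the outermost of them started 279 bp from the end of the reference. Next in score came the GPI-anchored surface protein gene SPAC212.12 (429) and pdc101 (410). In successive steps of 50 kb from the edge inwards the median score was 285, 120 and 93, so the outermost step held the higher peaks. The longest stretch without an untagged peak ran over 14167 bp (68875 to 83041), which holds 2 uncharacterised genes, 7 long non-coding RNA (lncRNA) genes and 3 retrotransposon long terminal repeats (LTRs).

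I right differed from the other ends in its Nse2 list, which held 1 region with no summit in the window. That region ran over 257291 bp and had its summit at snz1, a vitamin B6 synthesis gene outside the window. Pli1 had 5 regions here, all with summits inside. The outermost summit, at 5578758 (score 2341), lay in SPAC750.08c and 12 bp from the untagged summit. Inside untagged peaks were also the Pli1 summits in the amino acid permease gene SPAC1039.01 (1084) and in SPAC922.03 (1643), annotated as a deaminase. Outside them were a Pli1 summit in the serine tRNA gene SPATRNASER.04 (position 5437762, score 2754), 2757 bp from the nearest untagged summit, and one in the lncRNA SPNCRNA.4453. The SPNCRNA.4453 region was short, at 548 bp, and its score of 153 ranked 295 of 299.

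The untagged peaks of I right included the top score of all arm ends, 1111 in SPAC750.08c, ranked 17 of 3535. Next were a peak between genes near SPNCRNA.4511 (786) and one in SPAC750.07c, an uncharacterised gene of 372 bp (724). These 3 peaks lay within 3712 bp of the end of the reference, and the step from 0 to 50 kb had a median score of 156, against 107 in the next step and 137 in the innermost one. The longest stretch without an untagged peak spanned 12734 bp (5522715 to 5535448). It holds the glycoprotein gene pfl9 and the dehydrogenase gene SPAC186.02c.

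II left had the fewest untagged peaks, 31, which covered 13.8% of the window. Pli1 had a summit at 8065 (score 2369) in ftm5, a gene for a transmembrane helix protein of unknown role, 28 bp from an untagged summit. Its other summit was at 107578 (4418) in the lncRNA SPNCRNA.1309, 1541 bp from the nearest untagged summit. The single Nse2 summit in the window was in fex2 at 56349 (6659), 41 bp from the untagged one. The second Nse2 region, of 441977 bp, had its summit outside, in the phosphogluconate dehydrogenase gene gnd1. No Pli1 and Nse2 summits met in this window.

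Among the untagged peaks of II left, fex2 had the highest score (478, ranked 208), followed by the phosphate transporter gene pho841 (429) and the lncRNA SPNCRNA.4513 (417). A row of 4 transporter genes, SPBPB10D8.04c to SPBPB10D8.07c, carried 1 peak each, with scores between 190 and 286. All 4 of those peaks lay wholly in repeated sequence. The longest stretch without an untagged peak was 13520 bp (59377 to 72896) and holds 6 protein-coding genes, among them cmt2 and aes1.

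II right held 3 Pli1 and 2 Nse2 regions. The Pli1 region with the highest score of all arm ends, 13463 (ranked 14 of 299), ran over 123354 bp and had its summit at 4443285, 5 bp from an untagged summit. That position is in prt2, the lncRNA that represses the neighbouring phosphate transporter gene pho84. A second Pli1 region had its summit outside the window, in spi1, which codes for the Ran GTPase of nuclear transport. The larger Nse2 region also had its summit outside, at the thiazole synthesis gene thi2 (34808). At the very end, both tagged lists had a short region in the lncRNA SPNCRNA.6662, of 1141 bp for Pli1 (summit 4538973, score 4167) and 1245 bp for Nse2 (summit 4538981, score 5636). These summits lay 8 bp apart and 831 and 823 bp from the end, and the nearest untagged summit was 3372 bp from the Pli1 one.

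The 38 untagged peaks of II right were led by SPBCPT2R1.02, an uncharacterised gene of 360 bp (633, ranked 106), the pseudogene SPBCPT2R1.07C (595) and tlh2 (512). The gene tlh2 held 4 peaks over 60.6% of its length, with the other scores at 47, 105 and 192. Inward of the helicase gene, pho84 reached 509 and agmatinase 2 (SPBC8E4.03) 504. The outermost untagged peak began 3952 bp from the end. The longest stretch without a peak was the shortest of such stretches among the 6 ends, at 9750 bp (4476670 to 4486419), and it holds pan5 and gal7.

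III left had the most Pli1 regions, 6, and 4 Nse2 regions. At its edge both tagged lists had a summit in the lncRNA SPNCRNA.1094, at 23828 for Pli1 (score 9289, ranked 19 of 299) and at 23829 for Nse2 (11713), with no untagged peak in either region. The next summits were in the nickel transporter gene nic1, at 45881 for Pli1 (1386), outside untagged peaks, and at 44451 for Nse2 (1838), on the untagged summit itself. Farther in, Pli1 had a summit in the histidine tRNA gene SPCTRNAHIS.03 (71402, score 3527), 1008 bp from the nearest untagged summit. Pli1 summits in pmp20 (1658) and in the lncRNA SPNCRNA.1115 (2837) also lay outside untagged peaks. The Pli1 summit in aah1 (2679) and the Nse2 summit in the ribosomal protein gene rpl35 (5862) lay inside them. The remaining Nse2 region had its summit outside the window, at tef101.

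III left was the only end of the 6 with no untagged peak in the top 10% of that list by score. Its highest scores were 304 in SPCC320.06, 298 in aah1, which codes for a GPI-anchored glycosyl hydrolase, and 276 in rpl35. Its first untagged peak lay 20993 bp from the edge, in nic1. The stretch before it (23131 to 44123), which was cut at the window edge, holds 4 protein-coding genes, 13 lncRNA genes and 3 LTRs. Pli1 covered 81.1% of it and Nse2 90.1%. The longest such stretch in the rest of the genome measured 24369 bp.

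III right had the most untagged peaks, 46, but the lowest median score, 90. Both tagged lists had a summit 695 to 698 bp before the 18S gene SPRRNA.46, at 2440299 for Pli1 (13441, ranked 15 of 299) and at 2440296 for Nse2 (14656). A further Nse2 region of 448 bp at 2439035 had the lowest score of that list, 97. Farther in, both lists had a summit in rpp103, which codes for a P1 protein of the ribosomal stalk, at 2407967 for Pli1 (2261) and at 2407951 for Nse2 (8938). These were 16 bp apart and 839 and 823 bp from the nearest untagged summit. Pli1 summits were also in hom2 (1730), outside untagged peaks, and in the proline dehydrogenase gene put1 (1762), inside one. The summits of bgs4 for Pli1 and ssa2 for Nse2 belonged to regions that only reached into the window.

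The untagged peaks of III right were led by SPCC70.10 (739, ranked 65), an uncharacterised gene 69882 bp from the edge. Next were put1 (434) and SPCC70.08c, annotated as a methyltransferase (414). In the innermost step, 100 to 150 kb, the median score was 70 and 1 of 15 peaks reached the median of the whole list. The longest stretch without an untagged peak was 12649 bp (2290994 to 2303642), cut at the inner edge of the window, with osr2, gst2, alr1 and SPCC965.09. A stretch of 9660 bp next to the rDNA was also free of peaks, and 76.0% of its 50-mers were repeated.

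Coverage by untagged peaks changed with distance from the edge in opposite ways on chromosome III and on the other chromosomes. Over the 4 ends of I and II, untagged peaks covered 22.4% of the outer 50 kb, 13.0% of the next 50 kb and 15.5% of the innermost. At each of these 4 ends the outermost step was the most covered, between 18.9% at II left and 24.2% at II right. Over the 2 ends of III the shares ran the other way, at 11.5%, 17.5% and 19.9%. III left went up at each step, at 8.65%, 15.6% and 23.4%, while III right was highest in the middle step, at 19.4%.

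Repeated sequence was measured in the same steps, as the share of 50-mers with a second copy on either strand of the reference. They made up 65.4% of the outer 50 kb over the 4 ends of I and II, 7.85% of the next step and 4.67% of the innermost. Over the 2 ends of III the values were 18.01%, 0.90% and 4.93%, with the most repeats in the step that untagged peaks covered least. Over the whole windows the share was 20.0%, against 2.87% in the rest of the genome. The lists rest on reads mapped uniquely to S. pombe, per the file headers, and the part of repeats in the peak calls was not tested.

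**Figure D2:**
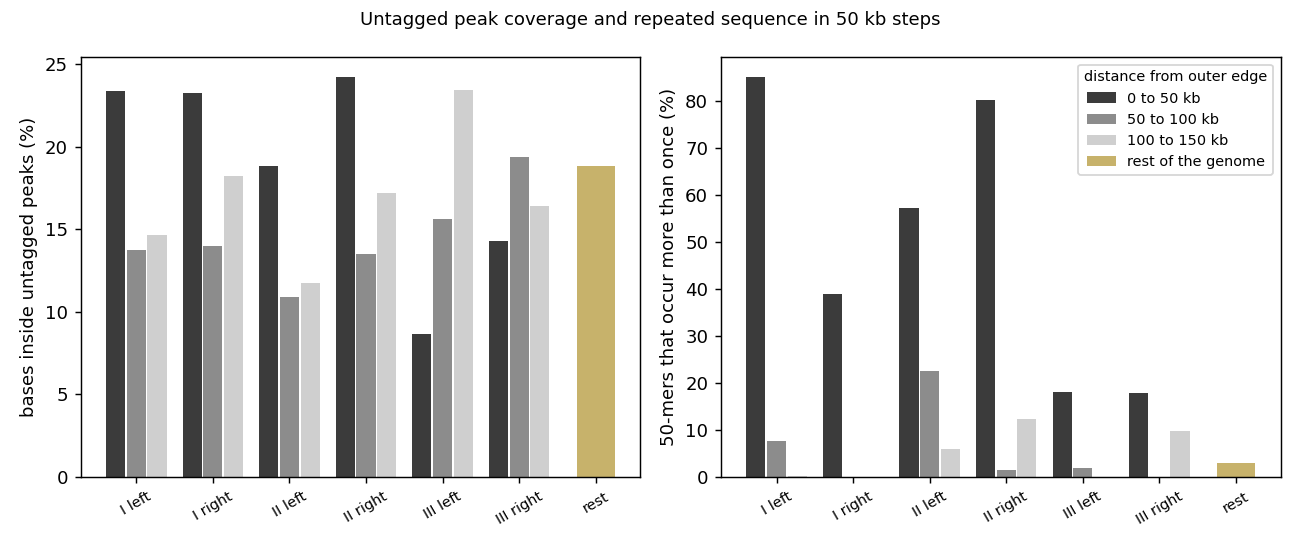
Bases inside untagged peaks (left, %) and 50-mers with a second copy in the reference (right, %) in each 50 kb step of the 6 arm ends, from the outermost step (dark) to the innermost (light), and in the rest of the genome (ochre). At the 4 ends of chromosomes I and II the outermost step is highest in both plots, while at III left coverage is 8.65% in the outermost step and 23.4% in the innermost.

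With ends pooled, median scores fell at each step inwards on chromosomes I and II and also on III, though not at each single end. Over the 4 ends of I and II the median untagged score was 184.5 in the outer step, 135 in the next and 116.5 in the innermost. On III it was 126, 105 and 86. In the outer 50 kb of I and II, 39 of 58 peaks reached the median of the whole list. Of the 229 peaks, 66 lay mostly in repeated sequence (at least 50% of their 50-mers), and 62 of these were on I and II. These 66 had a median score of 164 and the remaining peaks of the arm ends one of 106, while in the rest of the genome 111 peaks were mostly repeated, with a median of 171, against 128 for the others there. Over all 6 ends, 19 peaks (8.30%) ranked in the top 10% of the list, against 10.1% of peaks in the rest.

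**Figure D3:**
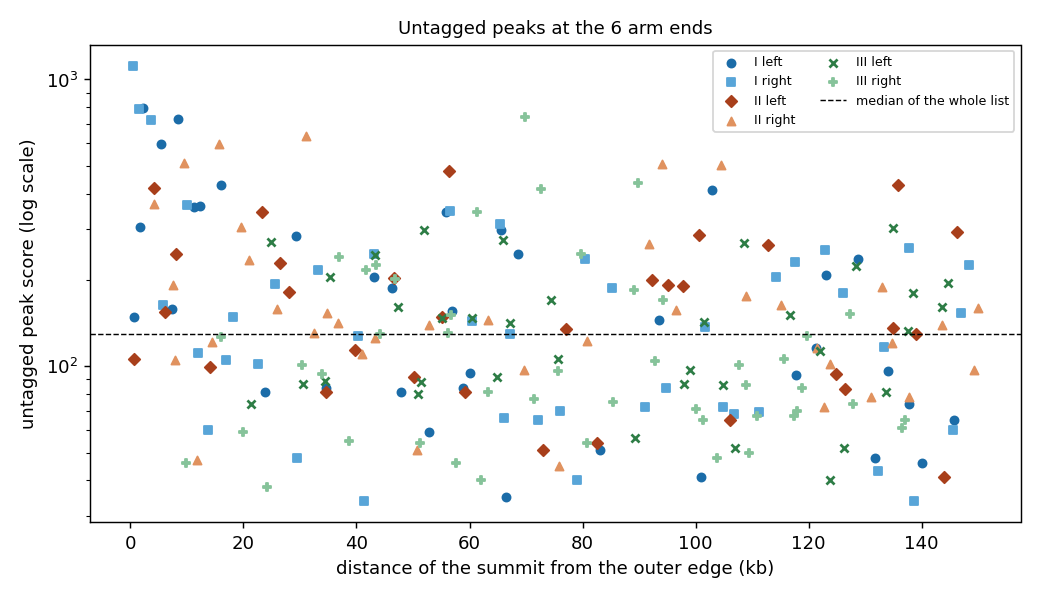
Score of every untagged peak at the 6 arm ends (log axis) against the distance of its summit from the outer edge in kb, coloured by arm end, with the median of the whole list as a dashed line. The peaks with the highest scores, up to 1111, are in the outer 10 kb of I right and I left, and the highest peak of III right, 739, is 69882 bp from its edge.

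The duplicated stretches tied the ends of I and II to each other and those of III mainly to each other. Of the 50-mers of I left, 21.9% also occurred at II right, 17.3% at II left and 9.97% at I right. III left shared 5.88% of its 50-mers with III right and at most 0.243% with any other end. III right shared 2.67% with II right. The AT content was 65.6% at the arm ends and 63.8% in the rest, and within 500 bp windows around untagged summits its median was 59.3% at the arm ends and 58.5% in the rest.

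Summits of the tagged lists lay in untagged peaks at shares whose intervals took in the shares of the rest of the genome. For Pli1, 10 of the 22 summits inside the windows lay in an untagged peak (45.5%, interval 24.4 to 67.8%), against 158 of 277 in the rest (57.0%, interval 51.0 to 62.9%) and 56.2% over the whole list. For Nse2 it was 6 of 11 (54.5%, interval 23.4 to 83.3%), against 35 of 51 in the rest (68.6%, interval 54.1 to 80.9%) and 66.1% over the whole list. Of the Pli1 summits, 7 of 22 lay within 500 bp of an Nse2 summit (31.8%, interval 13.9 to 54.9%), against 33 of 277 in the rest (11.9%, interval 8.34 to 16.3%). Seen from Nse2, 7 of 11 did at the arm ends (63.6%, interval 30.8 to 89.1%) and 33 of 51 in the rest (64.7%, interval 50.1 to 77.6%). No test was made on these shares.

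The sites where both tagged lists had a summit within 500 bp numbered 7: tlh1, fex1 and pdc101 at I left, SPNCRNA.6662 at II right, SPNCRNA.1094 at III left, and rpp103 and the rDNA border at III right. The first 3 lay inside untagged peaks, and the other 4 lay outside them. Of those 4, the sites at SPNCRNA.6662, SPNCRNA.1094 and the III right border were in tagged regions of 1141 to 1666 bp, where 2 summits cannot lie far apart. The rpp103 site was in regions of 44435 bp for Pli1 and 126868 bp for Nse2. Around rpp103 0% of 50-mers were repeated, against 100% around both rDNA border sites and 45.0% around the SPNCRNA.6662 site.

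The Nse2 list had more gaps per length at the arm ends than elsewhere, and the Pli1 list a similar number when all gaps were counted. The Nse2 list had 1.56 gaps per 100 kb at the arm ends, against 0.437 in the rest of the genome, and the Pli1 list had 2.44, against 2.40. Without gaps at a window edge or over unknown bases, 8 Nse2 gaps were left at the arm ends (0.889 per 100 kb, against 0.403 in the rest). Of these 8, 3 were at III left and 3 at III right. On chromosomes I and II only those near SPNCRNA.2045 at I left and at SPNCRNA.6660 at II right were left. The same setting left 16 Pli1 gaps (1.78 per 100 kb, against 2.36 in the rest). By length, gaps took up 1.67% of the arm ends in the Pli1 list (15004 bp) and 0.802% in the Nse2 list (7219 bp). In the rest the values were 0.669% for Pli1 and 0.156% for Nse2. No gap at the arm ends touched an untagged peak, and in the rest 1 of 280 Pli1 gaps and 0 of 51 Nse2 gaps did. All 14 Nse2 gaps touched a Pli1 gap, against 41 of 51 in the rest. Of the Pli1 gaps, 13 of 22 touched an Nse2 gap, against 40 of 280 in the rest. At the arm ends these counts include, in each list, 4 gaps at a window edge and 2 over unknown bases. Those gaps lay at the same places in both lists, where the reference ends or holds no known base. In the rest, leaving out such gaps kept 276 of 280 Pli1 gaps and 47 of 51 Nse2 gaps, so the shares are not alike in make-up.

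Most of the missing bases were on chromosome III. The Pli1 gaps took up 6617 bp at III left and 5018 bp at III right, and between 551 and 1015 bp at each end of I and II. For Nse2 it was 4129 bp at III left and 1649 bp at III right, and between 34 and 555 bp at the other ends. The longest Pli1 gap, of 4222 bp, lay beside the rDNA at III right (2435658 to 2439879) and touched SPCC569.01c, and 96.6% of its 50-mers were repeated. Within it the Nse2 list had gaps of 719 and 665 bp. Its counterpart at III left was a Pli1 gap of 3964 bp (24518 to 28481) at SPCP20C8.01c, 96.6% repeated, in which the Nse2 list lacked 2074 bp. Of the 50-mers of the III left gap 96.6% also occurred at III right, and of those of the III right gap 94.96% also occurred at III left.

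One long gap had no repeated sequence. It held ura4, the uracil synthesis gene used as a selectable marker in laboratory strains, in the Pli1 list (1962 bp) and in the Nse2 list (1861 bp), with 0% of 50-mers repeated in both. The ura4 gene was the sole protein-coding gene of the 309 at the arm ends with 0% of its length in both tagged lists. The tagged strains' ura4 alleles are not given in the labels, and their part in this gap was not tested.

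The gaps of at least 200 bp away from the rDNA borders and ura4 measured up to 677 bp. At II right a gap of 677 bp for Pli1 and 545 bp for Nse2 (4538005 to 4538549) separated the outermost region from the rest, at SPNCRNA.6660 and SPNCRNA.6661. At I left both lists lacked a stretch near SPNCRNA.2045, of 545 bp for Pli1 and 313 bp for Nse2, with 91.0% and 84.3% of 50-mers repeated. In each list 2 gaps held a run of 100 unknown bases of the reference, at ftm1 and SPAC212.01c on I left and at SPNCRNA.1306 and SPNCRNA.4548 on II left. The gap at SPNCRNA.1285 on III right was 269 bp for Pli1 and 265 bp for Nse2, and these overlapped by 175 bp.

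Further Pli1 gaps of that length had no counterpart in the Nse2 list. They lay at SPNCRNA.4452 (281 bp), SPNCRNA.4453 (215 bp) and SPNCRNA.4465 (268 bp) on I right, beside an LTR near SPNCRNA.6600 on II right (214 bp), near SPNCRNA.6710 on III left (234 bp) and at SPNCRNA.1293 on III right (372 bp). The Pli1 gap of 261 bp at nic1 and SPCC757.02c on III left had one, of 194 bp. The gaps that end at the window edge were 8 to 107 bp long in the Pli1 list and 10 to 61 bp in the Nse2 list.

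**Figure D4:**
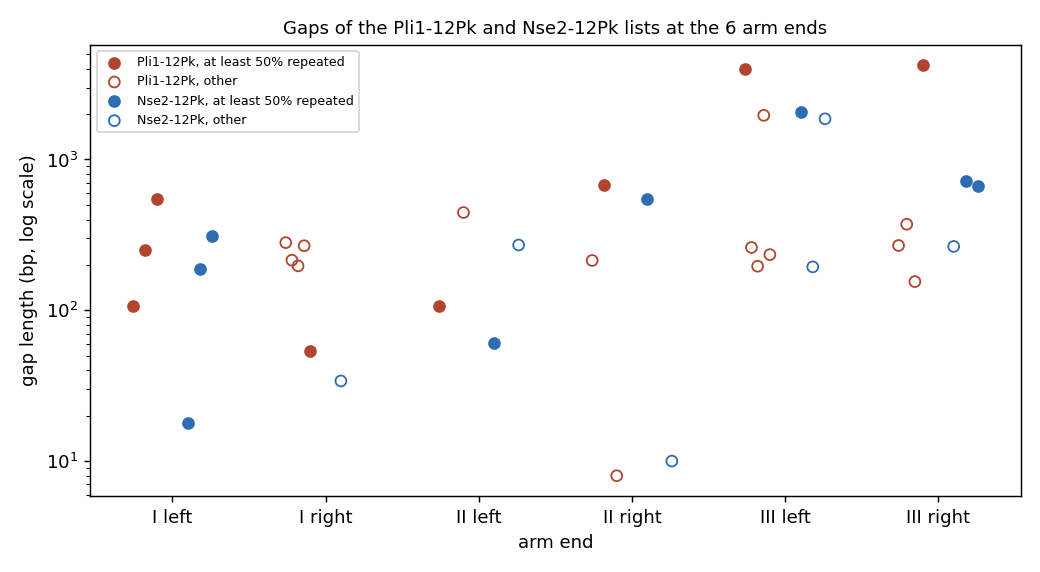
Length in bp (log axis) of each gap of the Pli1-12Pk list (red) and the Nse2-12Pk list (blue) at the 6 arm ends, filled where at least 50% of its 50-mers are repeated, with a small sideways shift that carries no value. The gaps over 1000 bp are at III left and III right, and of these the open symbols at III left are those at ura4.

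With genes of all lengths pooled, the untagged list touched genes of the arm ends about as often as genes elsewhere. Of the 309 protein-coding genes, 171 were touched by at least 1 bp (55.3%, interval 49.6 to 61.0%), against 2603 of 4804 in the rest (54.2%) and 54.3% over the whole genome. The share was 26 of 55 at I left, 34 of 51 at I right, 24 of 43 at II left, 26 of 43 at II right, 30 of 59 at III left and 31 of 58 at III right. By percentage these ran between 47.3% at I left (interval 33.7 to 61.2%) and 66.7% at I right (52.1 to 79.2%), whose intervals overlap. Genes took up fewer of the bases at the arm ends, 55.2% against 78.3% in the rest, and least at II left with 43.6%. When at least 50% of a gene had to be covered, the share was 20.4% at the arm ends, against 12.8% in the rest. This share was not split by gene length, and the median gene was shorter at the arm ends (1464 bp, against 1788 bp).

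Untagged summits were in protein-coding genes for 208 of 229 peaks (90.8%, interval 86.3 to 94.2%), against 3231 of 3306 in the rest (97.7%, interval 97.2 to 98.2%). On III left and III right all 35 and all 46 were, and on II right 30 of 38. The other 21 summits of the arm ends comprised 6 in pseudogenes, 11 in non-coding RNA genes and 4 between genes. The share touched went with gene length, and it was higher at the arm ends than in the rest in each length class. Only below 1000 bp did the intervals not overlap. Genes at the arm ends were shorter, with a median of 1464 bp against 1788 bp in the rest. Of genes of at least 2000 bp, 79 of 95 were touched (83.2%, interval 74.1 to 90.1%), against 1542 of 2024 in the rest (76.2%, interval 74.3 to 78.0%). From 1000 bp to below 2000 bp the share was 69 of 138 (50.0%, interval 41.4 to 58.6%), against 931 of 2010 in the rest (46.3%, interval 44.1 to 48.5%). Of genes below 1000 bp it was 23 of 76 (30.3%, interval 20.2 to 41.9%), against 130 of 770 in the rest (16.9%, interval 14.3 to 19.7%). These short genes included SPAC750.08c (1111), SPAC750.07c (724), SPBCPT2R1.02 (633) and SPAC212.12 (429), and all 4 have a peak that lies wholly in repeated sequence. Others did not, such as SPCC70.08c (414) and rpl35 (276), with 0% of their 50-mers repeated.

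Genes for transporters and permeases, which carry nutrients and ions across membranes, were the group touched most often. At the arm ends 42 of 47 were touched (89.4%, interval 76.9 to 96.5%), against 129 of 157 in the rest (82.2%, interval 75.3 to 87.8%). They are long genes, of 2089 bp at the median, where all genes of the arm ends had 1464 bp. The highest peaks among them were at pho84 (509), fex2 (478), pho841 (429), fex1 (345) and the urea transporter gene SPAC869.03c (314). Not touched were str3, which takes up iron siderophores, mfs2, the basic amino acid transporter gene cat1, thi7 and SPCC613.01. II left alone held 14 of the 47, of which 13 were touched.

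Oxidoreductase and dehydrogenase genes were touched in 9 of 22 cases (40.9%, interval 20.7 to 63.6%), against 139 of 206 in the rest (67.5%, interval 60.6 to 73.8%). Of the 9, 6 were at I right, among them SPAC750.08c, the hydroxyacid dehydrogenase gene SPAC186.07c (216) and yhb1 (144), which codes for a nitric oxide dioxygenase. The others were put1 (434), qcr2 of the respiratory chain (170) and SPAC977.14c (95). Genes for cell surface and GPI-anchored proteins were touched in 7 of 9 cases (77.8%, interval 40.0 to 97.2%), against 13 of 24 in the rest (54.2%, interval 32.8 to 74.4%). The exceptions were pfl9 and pfl7. Uncharacterised genes were touched in 17 of 47 cases (36.2%, interval 22.7 to 51.5%), against 76 of 327 in the rest (23.2%, interval 18.8 to 28.2%). In all 4 groups the intervals of the arm ends and the rest overlapped.

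**Figure D5:**
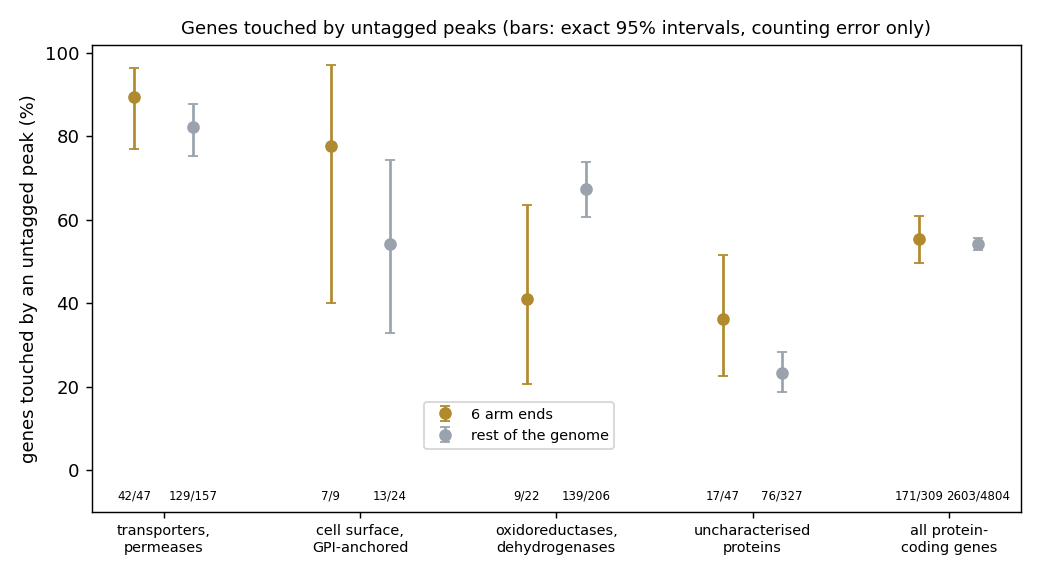
Share of genes touched by an untagged peak (%) at the 6 arm ends (ochre) and in the rest of the genome (grey) for 4 gene groups and all protein-coding genes, with exact 95% intervals that cover counting error only and the counts below. The transporter share is 89.4% at the arm ends and 82.2% in the rest, and the intervals of each pair overlap.

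The smaller lists were as follows. Both tlh helicase genes were touched. Of the galactose genes, which lie together on II right, gal10 (epimerase, 139) and gal1 (galactokinase, 51) were touched, and gal7 (uridylyltransferase) was not. Both ght genes of the hexose transporter family at the arm ends were touched, ght7 (114) and ght3 (51), as were all 6 in the rest. Both Tf2 retrotransposons were touched, Tf2-11 on II right by 3 peaks and Tf2-13 on III right by 4, with scores of 67 to 127, as were all 11 in the rest. Of their 50-mers 91.1% (Tf2-11) and 98.8% (Tf2-13) were repeated, so the assignment of these peaks to 1 copy is uncertain. No wtf spore killer gene lies at the arm ends.

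RNA genes and pseudogenes gave low counts. Untagged peaks touched 155 of 545 lncRNA genes (28.4%, interval 24.7 to 32.4%), against 2157 of 6588 in the rest (32.7%) and 32.4% over the whole genome. They touched 6 of 14 pseudogenes (42.9%, interval 17.7 to 71.1%), against 4 of 18 in the rest (22.2%, interval 6.41 to 47.6%). None of 4 tRNA genes was touched at the arm ends, which allows a share of up to 60.2%, and 13 of 167 were in the rest (7.78%). For 5S rRNA genes it was 0 of 2, against 3 of 34. For LTRs it was 0 of 58, which allows up to 6.16%, against 0 of 180 in the rest and 0% over the whole genome. Of the 4 tRNA genes, SPATRNASER.04 and SPCTRNAHIS.03 held the Pli1 summits given above.

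Gene families whose copies sit at several ends showed how far the list separated related genes. The 4 L-asparaginase genes, on I left, I right and II left, were each touched, with scores of 135 to 246. Of 8 genes for transmembrane helix proteins (ftm1 to ftm7 and SPBPB2B2.19c), ftm4 (111), ftm5 (246) and SPBPB2B2.19c (153) were touched. Of 3 Vel1p-domain genes SPBPB2B2.15 on II right was touched (125), and its copies on I left and II left were not. Both phospholipase genes were touched, plb4 on I left (187) and SPBC1348.10c on II left (229), whose aligned bases are 100% identical.

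Other pairs were less even. Over aligned bases the fluoride channel genes fex1 (345) and fex2 (478) are 96.5% identical. The surface protein genes pfl6 (205) and SPBC1348.08c (344) are 99.9% identical by the same measure. Over the whole alignment the values are 90.9% for the fex pair and 88.1% for the pfl6 pair. In contrast ftm1 on I left had no peak while ftm5 on II left had one. Their aligned bases are 99.9% identical (88.3% over the whole alignment), and the gap with unknown bases overlaps ftm1. SPAC212.04c had no peak and its partner SPBCPT2R1.04c one of 158. These 2 are 90.9% identical over aligned bases but 72.3% over the whole alignment. For all these copies the assignment of a peak to 1 member is uncertain, since the read length is not given.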

How the data were processed

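Chromatin was precipitated with an anti-Pk antibody from 3 strains, with 1 ChIP library and 1 input each. The 3 inputs were not analysed here. Of the values, the score of each region is the authors' deposited whole number, of unstated scale, and per the labels signal was an IP/input ratio scaled to a budding yeast calibrator. Starts, ends and summits are the authors' positions (other columns of the deposited lists), and the deposited columns for fold enrichment, p and q hold 0 throughout. Per the file headers, uniquely mapped S. pombe reads and a p-value track underlie the lists. MACS3, Bowtie2, SAMtools and cutadapt appear, without versions, in the submitters' processing notes, as does the budding yeast build sacCer3. For S. pombe no build is stated, and the sequence names match ASM294v3. Read depth is not given either, so precision was limited to counting intervals.

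Overlap was counted from 1 bp with Python 3.11.15, NumPy 2.4.6, pandas 2.3.3 and Biopython 1.88, in place of bedtools. Intervals came from SciPy 1.17.1 and plots from Matplotlib 3.10.9. On simulated data the code recovered 200 of 200 planted genes among 5113. Annotation and sequences came from RefSeq, and positions count from 1. The text names, at each end, the 3 highest untagged peaks, the tagged summits, the genes at gaps of at least 200 bp, the outermost peaks, the longest stretch without untagged peaks and members of small gene lists. Further genes named by score were chosen after their values were seen. A region takes the gene at its summit, or else the nearest. Members and lists were chosen with earlier results of these data known. Alternatives changed the window, the summit rule, merging within 500 bp, score and gap limits, the gene rule and the arm ends included.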

Additional observations from a re-analysis of the deposited data

How the results depend on the processing

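No paired analysis was possible because each strain had 1 ChIP library and no test was made. Of 86 alternative values for 14 results, 67 stayed within 1.5 times a count or within the interval of a share, and 19 moved, mostly because the setting itself keeps fewer bases or regions. With windows of 50 kb there were 13 Pli1 regions, 77 untagged regions, 11 Pli1 gaps (10002 bp) and 4509 bp of Nse2 gaps, and with windows of 100 kb 150 untagged regions. Merging within 500 bp left 11 Pli1 regions. With scores at or above each list's median there were 12 Pli1 regions (48.3% of bases), 9 Nse2 regions (58.6%) and 118 untagged regions (13.1 per 100 kb, 9.61% of bases), and 31.7% of protein-coding genes were touched, against 31.0% in the rest. Counting only Nse2 regions with their summit in the window left 49.9% of bases covered. Asking for at least 50% of a gene to be covered gave 20.4% at the arm ends, against 12.8% in the rest, with no split by gene length. Gaps of at least 200 bp numbered 8 in the Nse2 list. Without gaps at a window edge or over unknown bases, a setting added after the data were seen, there were also 8. Leaving out each arm end in turn gave 183 to 198 untagged regions, 24.4 to 26.4 per 100 kb, 16.4 to 17.3% of bases and 53.1 to 57.1% of genes touched. Unknown read depth and length limit all calls, most of all in repeated sequence.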
